A study of Mus musculus with 21 samples.

Results

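The signal recognition particle (SRP) and the Sec61 translocon bring newly made secretory and membrane proteins to the endoplasmic reticulum (ER) and pass them through or into its membrane. The deposited count table was searched for 10 genes of this route by symbol, and all 10 were found among the 55487 genes listed and passed the filter that left 18146 genes for testing. They were 5 protein subunits of the particle (Srp9, Srp14, Srp19, Srp68 and Srp72), the membrane subunit of its receptor (Srprb), the 3 subunits of the Sec61 channel (Sec61a1, Sec61b and Sec61g) and Sec62, a membrane protein that works beside the channel.

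SRP is a ribonucleoprotein: its 7SL RNA carries the Srp9 and Srp14 heterodimer at the end that slows translation, while Srp19, Srp68, Srp72 and the signal-binding GTPase Srp54 sit at the other end. The particle meets a signal peptide as it leaves the ribosome, docks on the SRP receptor of the ER membrane, and hands the ribosome to the Sec61 channel, which consists of an alpha, a beta and a gamma subunit. In neurons this route handles the receptors, channels, adhesion molecules and neuropeptide precursors that reach the cell surface or are secreted.

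The hippocampus of wild type male C57BL/6 mice was taken at 10 weeks, and its poly-A RNA was sequenced as 1 library for each mouse. In the 9 maternal separation (MS) mice the litter had as a unit been moved away from the dam for 4 hr a day on postnatal days 10 to 17, and the home cage held less nesting material in those days. The 12 standard rearing (SR) mice were the controls and were not separated. Litters, not single mice, were allotted to a rearing condition, and the labels name no litter. The p-values below therefore measure the spread between mice, some of which may have been littermates, and not the spread between litters.

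MS mouse 5 lay apart from the other libraries and was left out of the values below. Its score on the first principal component, which held 47.5% of the variance, was -27.1, where the other 20 libraries lay between -11.9 and 12.2. Its summed level of 6 dentate granule cell markers was 70.6 CPM (a gene's counts scaled to the TMM-normalised size of the library), against 281 to 545 CPM in the other MS mice and 286 to 598 CPM in SR mice, and its 8 striatal markers summed to 2023 CPM, against at most 700 CPM elsewhere. The 8 MS and 12 SR libraries that were kept held 17276810 to 24052716 and 18368519 to 26450808 counts. In those libraries none of the dentate, CA pyramidal, choroid plexus, striatal or red blood cell markers was at 0. The choroid plexus markers varied most: 10 markers summed to a median of 5253 CPM in MS (172 to 6460) and 1465 CPM in SR (176 to 7083). The edgeR log2 fold change of MS against SR was above 0 in 10 of 10 choroid plexus and 8 of 8 striatal markers. It was above 0 in 4 of 5 red blood cell, 2 of 6 CA pyramidal and 0 of 6 dentate markers, against 50.3% of all genes. In each list 0 markers were at an unadjusted p under 0.05, against 11.5% of all genes.

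To show the DNA in front of the genes the comparison turned on, the 250 bases upstream of the start annotated by RefSeq are printed for Srp9 and Sec61g, the members with the smallest p-values, for Srp72, the member that was lower in MS, and for Sec62, the member with a log2 fold change of 0.00 between MS and SR. RefSeq's promoter table (GRCm38.p6) matched 7 of the 10 members. It had no entry for Srp19, Srp68 and Sec61a1. Capitals mark each match, on either strand, to the block CCAAT, to the block with the letters CCACG and to the core motif ACGTG, and the sequences read 5′ to 3′ on the gene's strand.
Srp9: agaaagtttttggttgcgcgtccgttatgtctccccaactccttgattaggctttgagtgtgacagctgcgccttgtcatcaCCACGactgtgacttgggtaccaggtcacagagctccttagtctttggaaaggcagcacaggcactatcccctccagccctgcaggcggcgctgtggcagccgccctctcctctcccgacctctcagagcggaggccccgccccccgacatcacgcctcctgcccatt
Sec61g: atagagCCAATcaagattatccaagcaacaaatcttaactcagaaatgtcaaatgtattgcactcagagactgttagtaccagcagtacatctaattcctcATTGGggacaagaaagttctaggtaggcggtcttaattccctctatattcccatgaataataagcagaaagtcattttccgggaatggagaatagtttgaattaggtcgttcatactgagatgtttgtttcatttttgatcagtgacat
Srp72: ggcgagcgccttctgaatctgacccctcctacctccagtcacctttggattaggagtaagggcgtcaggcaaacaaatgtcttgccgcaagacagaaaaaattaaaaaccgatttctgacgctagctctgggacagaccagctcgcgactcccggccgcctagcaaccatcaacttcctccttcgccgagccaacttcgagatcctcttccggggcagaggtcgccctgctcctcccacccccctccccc
Sec62: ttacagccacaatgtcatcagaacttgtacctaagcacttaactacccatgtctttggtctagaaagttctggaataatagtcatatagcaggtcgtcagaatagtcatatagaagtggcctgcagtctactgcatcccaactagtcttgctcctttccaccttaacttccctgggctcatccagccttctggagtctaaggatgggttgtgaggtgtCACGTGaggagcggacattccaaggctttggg
These windows lie at chr1:182124487-182124736 on the plus strand (Srp9), chr11:16508485-16508734 on the minus strand (Sec61g), chr5:76974451-76974700 on the plus strand (Srp72) and chr3:30792626-30792875 on the plus strand (Sec62). The GENCODE M21 gene of Srp72 starts further upstream than that of RefSeq, at 76974683, and that of Sec62 at 30792875, so the last bases of these windows lie inside the GENCODE genes.

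The Srp9 window was 60% G and C with 13 CpG dinucleotides, and that of Srp72 58% with 15. The Sec61g window had 36.8% and 3 CpG, and the Sec62 window 46.8% and 3, where the median of all 32851 windows was 52.4% and 6. CCAAT and CCACG are the outer blocks of the ER stress response element, which is bound in the unfolded protein response. The whole element, with 9 bases between the blocks, was in 0 of the 7 member windows and in 0.113% of all windows, searched on both strands. Its shorter variant, ERSE-II, was in 0 of 7 and 0.0304% of all, and the unfolded protein response element TGACGTGG in 0 of 7 and 0.563% of all.

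The short blocks are common. CCAAT alone was in 1 of 7 windows (Sec61g, at bases -244 to -240 and, on the other strand, -149 to -145) and in 33.8% of all. CCACG was in 2 of 7 (Srp9, at -168 to -164, and Srprb) and in 28.3% of all. ACGTG, which can overlap CCACG, was in 3 of 7 (Srp14, Sec62 and Srprb) and in 16.6% of all, and in Sec62 the overlapping matches on the 2 strands form the palindrome in capitals. TATAAA was in 0 of 7 and in 12.4% of all. A match describes letters in this window and is not a measured binding site.

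In control mice the members differed widely in level. Levels between genes are compared here as CPM per kilobase of the longest transcript annotated as principal. Where none was so annotated, the longest coding transcript was used. Srp14 was highest in SR mice at 58.7 ± 3.15 CPM per kb (SD, n = 12), followed by Sec62 at 44.2 ± 2.08 and Srp9 at 31.0 ± 1.84. The particle's scaffold subunits were close to each other, with Srp68 at 27.4 ± 0.910, Srp72 at 26.9 ± 1.29 and Srp19 at 25.8 ± 1.51 CPM per kb. On this scale the channel subunits lay lower and far apart: Sec61a1 at 16.7 ± 0.901, Sec61b at 11.9 ± 1.11 and Sec61g at 4.18 ± 0.444, with the receptor subunit Srprb at 11.8 ± 0.690. Sec61a2, a second alpha subunit gene outside the members, had 20.6 ± 0.669. Neighbours in this order differed by less than their summed SDs for Srp68 and Srp72, for Srp72 and Srp19, and for Sec61b and Srprb. The order depends on the length used. Divided by the length of all annotated exons instead, Sec62 was highest at 40.4 CPM per kb, with Srp14 next at 39.2. On that scale the scaffold subunits were far apart, with Srp68 at 25.3, Srp72 at 17.1 and Srp19 at 6.23, and Sec61a1 at 7.88 lay above Srp9 at 7.64 and above Srp19. Srp9 went from rank 3 to rank 7 and Srprb from rank 9 to rank 5, while Sec61g stayed at rank 10. Both lengths used for Sec61g, 1862 and 2464 bases, are annotated ones, and which transcripts its reads came from was not determined. Its rank therefore holds only for these lengths.

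The comparison of MS with SR asks whether separation in early life was followed by another level of these genes in the adult hippocampus. None of the 10 members passed the adjusted threshold of 0.05 in edgeR's quasi-likelihood test, and the test called 2 of all 18146 genes (0.011%). The fitted log2 fold change was above 0 in 9 of 10 members, against 50.3% of all genes, but that of Sec62 was 0.00. Srp9 and Sec61g were higher in MS at an unadjusted p under 0.05, which is 2 of 10 where 6.62% of all genes were higher at that p, and 0 members were lower at it, against 4.92% of all genes. The median log2 fold change of the members was 0.07, and that of all genes tested was 0.00. The MS and SR mice overlapped in all 10 members. Over all genes 0.00551% were without overlap in each direction. In whole tissue, a difference in the share of a cell type and a difference in RNA per cell cannot be told apart.

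**Figure D1:**
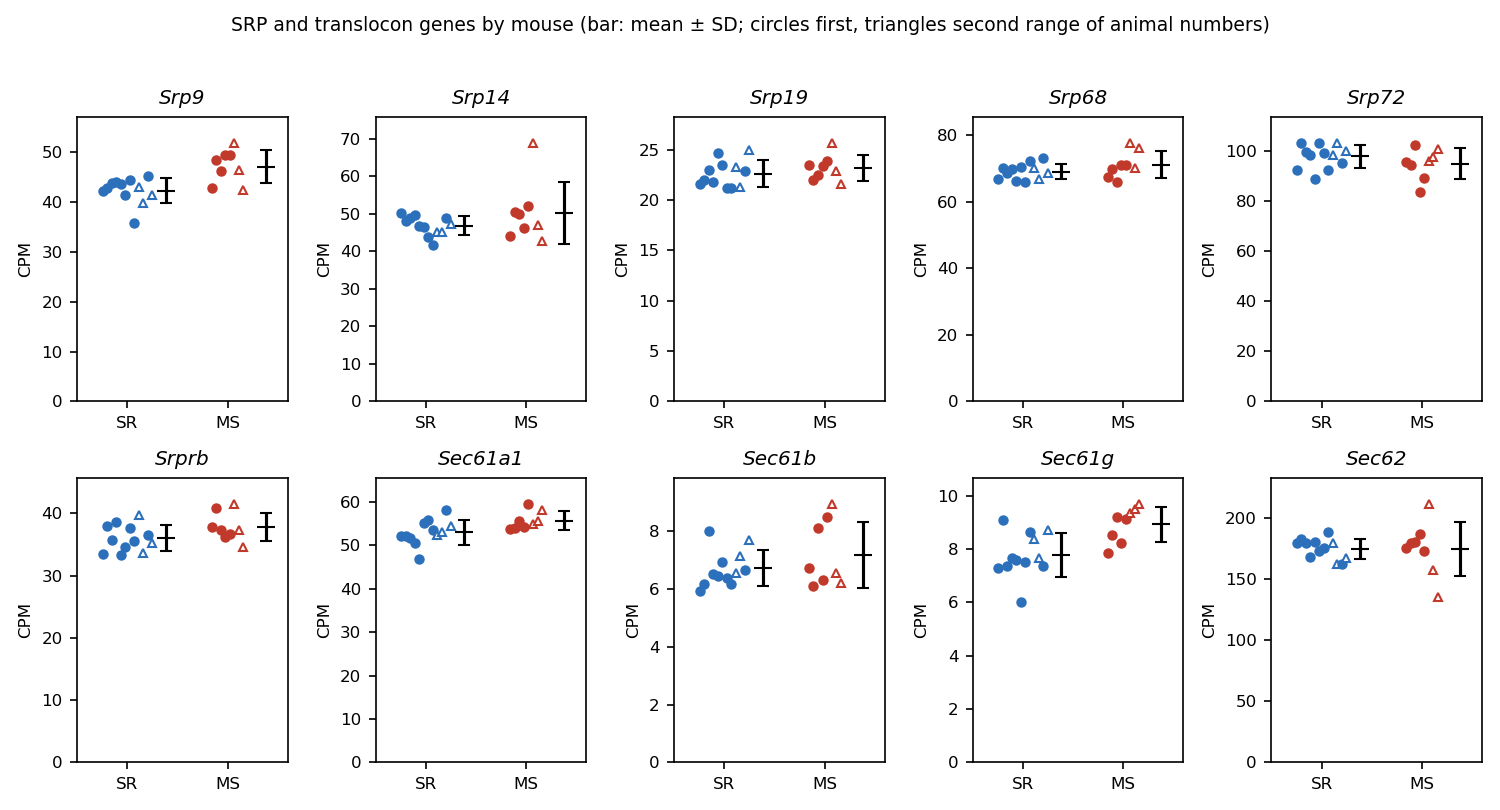
Level of each of the 10 genes in CPM (vertical axis, from 0) in the 12 SR and 8 MS mice, 1 symbol a mouse, with the mean ± SD beside each group; circles are mice of the first and triangles of the second range of animal numbers. In Srp9, 6 of 8 MS mice lie above every SR mouse, in Sec61g 5 of 8 do, and in Srp14 MS mouse 7 stands alone at 68.9 CPM.

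Srp9 and Srp14 bind each other and together the Alu end of the 7SL RNA. Gene positions here and below are those of GENCODE M21 on GRCm38. Srp9 (ENSMUSG00000026511, chromosome 1, 182124737 to 182132407, plus strand) lay between 42.4 and 51.9 CPM in the 8 MS mice, with a median of 47.5, and between 35.9 and 45.2 CPM in the 12 SR mice, with a median of 42.9. MS mice 2, 3, 4, 6, 7 and 8 were above every SR mouse, MS mice 1 and 9 lay among the SR values, and SR mouse 8 was the lowest of all. The means were 47.2 ± 3.33 CPM (SD, n = 8) and 42.3 ± 2.51 CPM (SD, n = 12). The log2 fold change was 0.16 (SE 0.0436, 95% interval 0.07 to 0.25, edgeR p = 0.00147, adjusted p = 0.169). This is a level 11.5% higher (95% interval 4.73% to 18.6%), and the adjusted p did not pass. DESeq2's Wald test gave an adjusted p of 0.0608 for Srp9, the smallest among the members, while it called 0.966% of the 13871 genes to which it gave one. With all 21 libraries the edgeR log2 fold change was 0.13 (adjusted p = 0.271), and MS mouse 5 had 39.98 CPM. Srp9 shares 253 identical bases with Gm13736, whose mean count was 8.62, so reads there may have been split or left out. Of its exonic bases, 784 lie opposite the pseudogene Gm17968, whose mean count was 0, and reads there may have been left out.

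Its partner Srp14 (ENSMUSG00000009549, chromosome 2, 118475850 to 118479711, minus strand) lay between 42.7 and 68.9 CPM in MS, with a median of 48.5, and between 41.8 and 50.2 CPM in SR, with a median of 47.0. The highest value belonged to MS mouse 7, the next MS mouse had 52.2 CPM, and 4 of 8 MS mice were above the SR median. The log2 fold change was 0.10 (SE 0.0642, edgeR adjusted p = 0.574) and was 0.02 without MS mouse 7. These partners thus had log2 fold changes of 0.16 and 0.10 with all 8 mice and of 0.14 and 0.02 without MS mouse 7. The difference between the partners was not tested.

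Srp19, Srp68 and Srp72 form the part of the particle that holds the signal-binding subunit. Srp19 (ENSMUSG00000014504, chromosome 18, 34330847 to 34336599, plus strand), which helps the 7SL RNA to fold, had 21.6 to 25.7 CPM in MS (median 23.2) and 21.2 to 25.0 CPM in SR (median 22.5). Srp68 (ENSMUSG00000020780, chromosome 11, 116245166 to 116274217, minus strand) had 65.9 to 77.8 CPM in MS (median 70.6) and 66.1 to 73.1 CPM in SR (median 69.3). Its binding partner Srp72 (ENSMUSG00000036323, chromosome 5, 76974683 to 76999937, plus strand) had 83.5 to 102.3 CPM in MS (median 95.6) and 88.6 to 103 CPM in SR (median 98.7). The groups lay over each other in all 3 genes: MS mouse 7 was the highest mouse in Srp19 and in Srp68, and MS mouse 4 the lowest in Srp72. The log2 fold changes were 0.04 (SE 0.0427, edgeR adjusted p = 0.789) for Srp19, 0.04 (SE 0.0327, adjusted p = 0.649) for Srp68 and -0.04 (SE 0.0380, adjusted p = 0.705) for Srp72. Without MS mouse 7 the values were 0.01 for Srp19 and 0.02 for Srp68. Srp68 also had 0.03 without MS mouse 9, and Srp72 -0.02 without MS mouse 4. With all 8 MS mice the 95% intervals ran from -3.51% to 9.02%, from -1.68% to 7.97% and from -8.09% to 2.48%. Stretches of Srp72 transcripts, at most 143 bases long, match transcripts of 79 other genes at an identity of at least 95%. Reads from these stretches may have been left out.

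The receptor is a dimer of Srpr, which receives the particle, and Srprb, a GTPase that anchors it in the ER membrane. Srprb (ENSMUSG00000032553, chromosome 9, 103188032 to 103202137, minus strand) had 34.6 to 41.5 CPM in MS (median 37.4) and 33.3 to 39.7 CPM in SR (median 35.6). MS mice 2 and 7 were above every SR mouse, 7 of 8 MS mice were above the SR median, and the groups overlapped. MS was higher than SR by 0.07 on the log2 scale (SE 0.0415, edgeR adjusted p = 0.536), with a 95% interval of -1.08% to 11.4%. A GENCODE M21 gene model on the same strand, Gm20425, shares 888 exonic bases with Srprb. Gm20425 has no entry among the genes listed in the deposited counts, which therefore hold no reads assigned to it.

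Sec61a1 encodes the pore-forming alpha subunit of the channel, and Sec61b and Sec61g the small beta and gamma subunits beside it. Sec61a1 (ENSMUSG00000030082, chromosome 6, 88503579 to 88518905, minus strand) had 53.8 to 59.6 CPM in MS (median 55.2) and 46.8 to 58.1 CPM in SR (median 52.7). Every MS mouse was above the SR median and 8 of 12 SR mice were below the lowest MS mouse, yet only MS mice 6 and 9 were above the highest SR mouse. For Sec61a1 the log2 fold change was 0.07 (SE 0.0353, edgeR p = 0.0535, adjusted p = 0.443), with a 95% interval of -0.081% to 10.5%. Gm44170 on the opposite strand, with a mean count of 0, overlaps 549 exonic bases of Sec61a1, and reads there may have been left out.

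Sec61g (ENSMUSG00000078974, chromosome 11, 16500530 to 16508484, minus strand) had 7.86 to 9.70 CPM in MS, with a median of 9.16, and 6.01 to 9.08 CPM in SR, with a median of 7.63. All 8 MS mice were above the SR median, MS mice 3, 6, 7, 8 and 9 were above every SR mouse, and 8 of 12 SR mice were below the lowest MS mouse, while SR mouse 2 lay as high as the middle of the MS mice. The means were 8.93 ± 0.653 CPM (SD, n = 8) and 7.78 ± 0.827 CPM (SD, n = 12). The log2 fold change was 0.20 (SE 0.0691, 95% interval 0.06 to 0.34, edgeR p = 0.00786, adjusted p = 0.261). As a percentage it was 14.9% (95% interval 4.08% to 26.8%), the largest estimate among the members and, with 134 to 220 counts a library, among the least precise. The transcript of the pseudogene Gm10177 is 99.1% identical to Sec61g over 424 bases, and its mean count was 10.6, so a part of the reads of this gene cannot be told from it.

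Sec61b (ENSMUSG00000053317, chromosome 4, 47474658 to 47483242, plus strand) had 6.11 to 8.94 CPM in MS (median 6.64) and 5.93 to 7.99 CPM in SR (median 6.52). MS mice 3, 6 and 7 were above every SR mouse and the other 5 lay among the SR mice. Sec61b matches Gm10320 at 98.3% identity over 474 bases, and the mean count of Gm10320 was 0.857. For Sec61b the log2 fold change was 0.10 (SE 0.0825, edgeR adjusted p = 0.684), and its 95% interval of -4.77% to 20.6% was the widest among the members. The value was 0.05 without MS mouse 7 and 0.06 without MS mouse 6. The 3 channel subunit genes among the members thus all had estimates above 0, from 0.07 to 0.20, and none passed the adjusted test. Sec61a2, outside the members, also encodes an alpha subunit. Summed, Sec61a1 and Sec61a2 had 105.3 ± 3.91 CPM (SD, n = 8) in MS and 103.5 ± 4.10 CPM (SD, n = 12) in SR.

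Sec62 (ENSMUSG00000027706, chromosome 3, 30792875 to 30821263, plus strand), which with Sec63 helps short or slow precursors through the channel and is also known as a receptor for the clearance of surplus ER, had the same mean in both groups. It had 135 to 212 CPM in MS (median 178) and 163 to 189 CPM in SR (median 178). The MS values were spread more widely: MS mouse 7 was the highest of all mice, and MS mice 9 and 8, at 135 and 158 CPM, were the lowest. The means were 175 ± 22.2 CPM (SD, n = 8) and 175 ± 8.24 CPM (SD, n = 12). The log2 fold change was 0.00 (SE 0.0546, edgeR adjusted p = 0.999), with a 95% interval of -7.50% to 8.15%. It was -0.04 without MS mouse 7 and 0.04 without MS mouse 9. The gene model 4933429H19Rik on the opposite strand, with a mean count of 0.619, overlaps 509 exonic bases of Sec62, and reads there may have been left out.

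**Figure D2:**
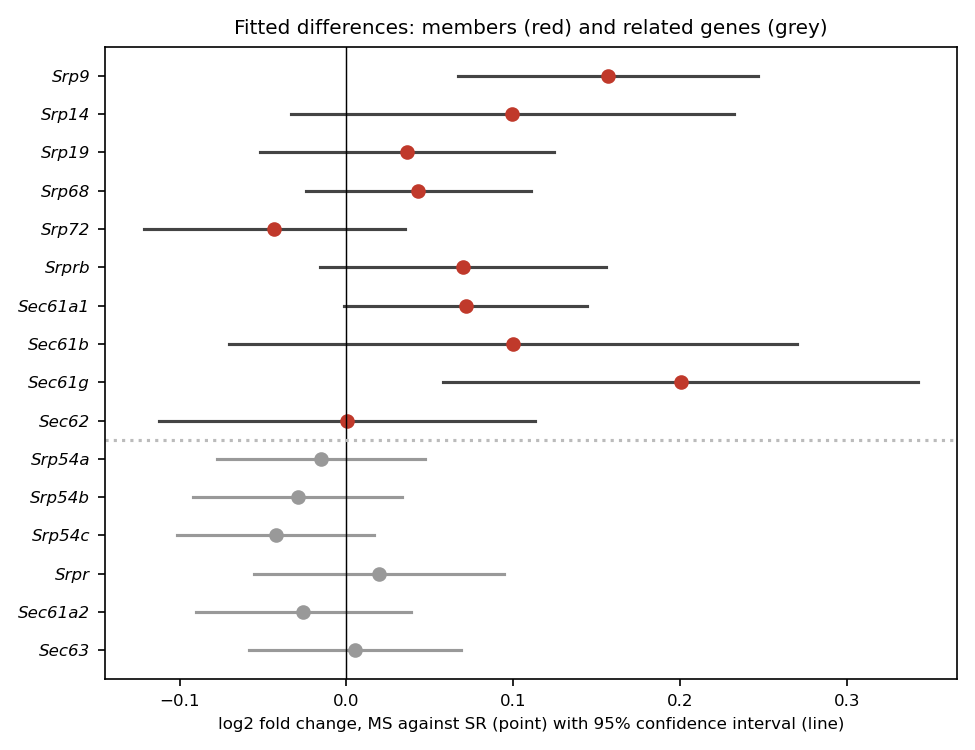
Fitted log2 fold change of MS against SR (horizontal axis; points) with its 95% confidence interval (lines) for the 10 members in red and, below the dotted line, 6 related genes in grey. The intervals of Srp9 and Sec61g lie above 0, and those of the other 14 genes include 0.

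The mice were not alike across the members. MS mouse 7 was among the 3 highest of the 20 mice in 8 of 10 members, the next being MS mouse 6 with 4. For each mouse the median over the 10 genes of its log2 level relative to the SR median was taken, which was 0.24 in MS mouse 7, 0.12 in MS mouse 6 and between -0.03 and 0.07 in the other MS mice. It lay between -0.06 and 0.03 in the 12 SR mice. Without MS mouse 7 the median log2 fold change of the members went from 0.07 to 0.04, Srp9 had 0.14 (edgeR adjusted p = 0.269) and Sec61g 0.19 (adjusted p = 0.353). MS mouse 7 also had the weakest correlation, across genes, of its log2 level with transcript length (r = 0.451, against 0.463 to 0.493 in the other MS mice and 0.470 to 0.488 in SR mice). With this trend as a term in the edgeR fit the log2 fold change was 0.14 for Srp9, 0.20 for Sec61g and 0.05 for Srp14.

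**Figure D3:**
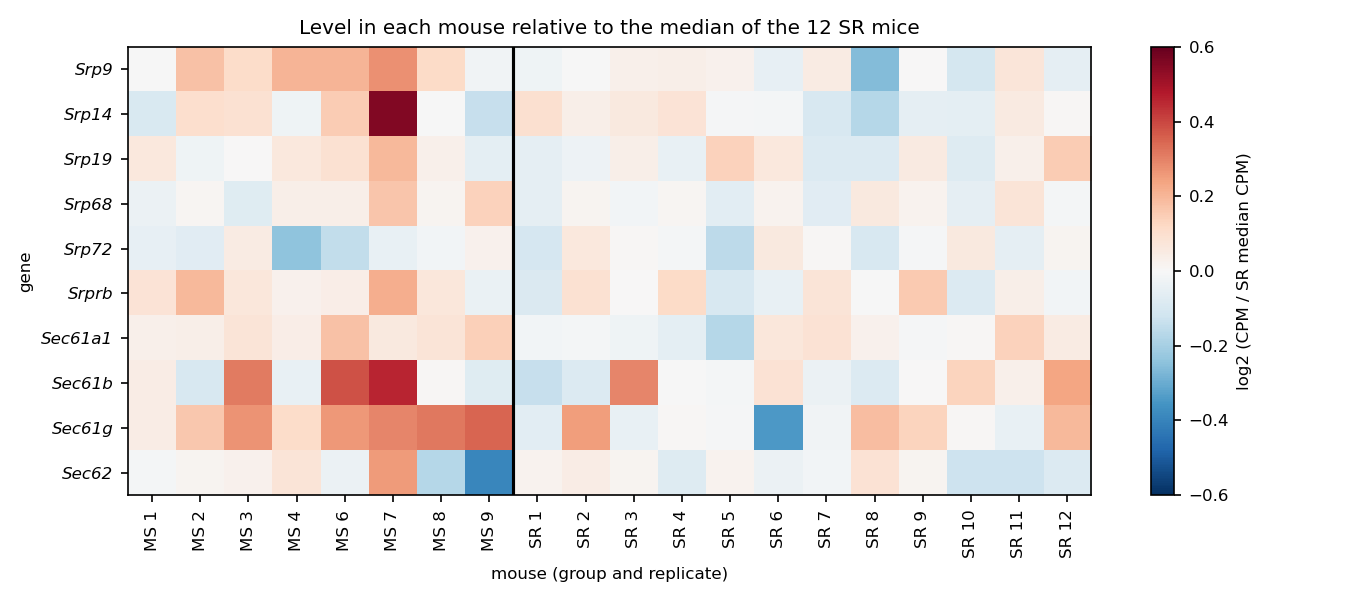
Level of each of the 10 genes (vertical axis) in each of the 8 MS and 12 SR mice (horizontal axis) as log2 of its CPM over the median CPM of the SR mice, from blue (lower) to red (higher). MS mouse 7 is red in 9 of 10 genes, and Sec61g and Sec61a1 are above 0 in every MS mouse.

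The choroid plexus markers had a higher median in MS than in SR, as given above. With their summed level as a term the edgeR log2 fold change was 0.16 for Srp9 (adjusted p = 0.312) and 0.21 for Sec61g (adjusted p = 0.416).

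The animal numbers in the labels fall into 2 ranges that each hold both groups, the first with 5 MS and 9 SR mice and the second with 3 and 3. Srp9 had a log2 fold change of 0.15 (SE 0.0546, edgeR adjusted p = 0.191) in the first range and 0.18 (SE 0.0802, adjusted p = 0.746) in the second. Sec61g had 0.17 (SE 0.0820, adjusted p = 0.323) and 0.20 (SE 0.119, adjusted p = 0.791). Sec61a1 had 0.07 (SE 0.0445) and 0.08 (SE 0.0651). In these 3 genes the estimates of both ranges were thus close. They were also close in Srprb (0.07 and 0.06), Srp19 (0.04 and 0.02), Srp72 (-0.06 and -0.03) and Sec62 (0.02 and -0.02).

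Srp14, Srp68 and Sec61b had estimates farther apart. Srp14 had 0.04 (SE 0.0791) in the first range and 0.21 (SE 0.116) in the second, which holds MS mouse 7. Sec61b went the other way, with 0.12 (SE 0.103) in the first range and 0.02 (SE 0.149) in the second. Srp68 had -0.0041 (SE 0.0372) and 0.12 (SE 0.0542), and the difference of 0.13 (SE 0.0658, edgeR p = 0.0661, adjusted p = 0.592) was the one with the smallest p among the members. No member was called in either range or for the difference between ranges, where 0.0496%, 0% and 0% of all genes were called. At an unadjusted p under 0.05 there were 2 members in the first range (Srp9 and Sec61g) and 2 in the second (Srp9 and Srp68), all higher in MS, beside 8.65% and 3.74% of all genes, and 0 for the difference, beside 8.67%. In the second range, 2 members, Sec61a1 and Sec61g, had no overlap between MS and SR mice. With 3 mice a group this held, in that direction, for 5.62% of all genes.

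**Figure D4:**
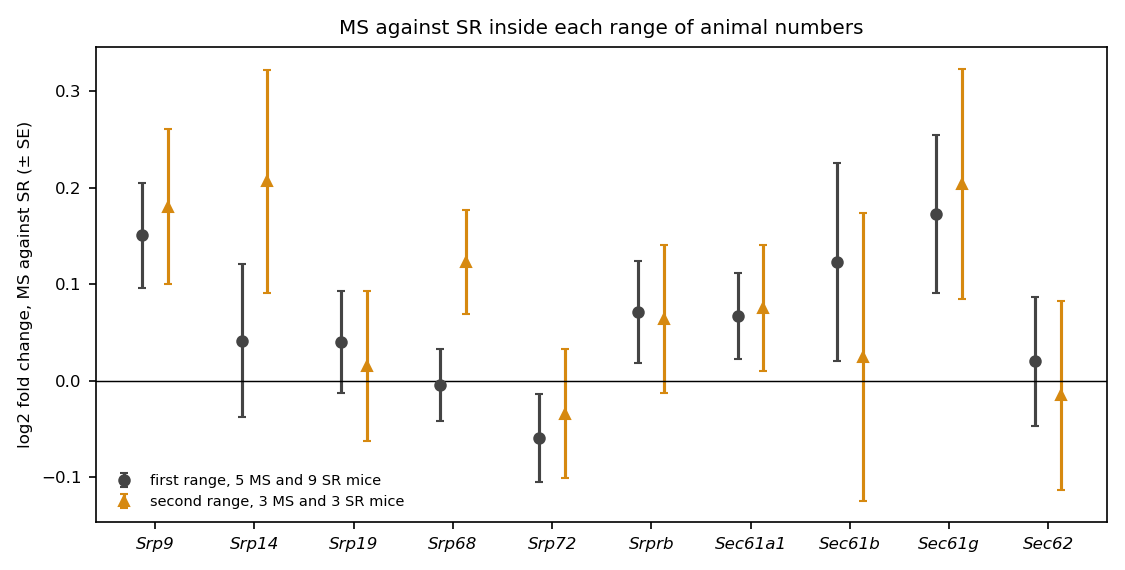
Log2 fold change of MS against SR (vertical axis, ± SE) for the 10 genes inside the first range of animal numbers (grey circles, 5 MS and 9 SR mice) and the second (orange triangles, 3 and 3). Srp9, Srp19, Srp72, Srprb, Sec61a1, Sec61g and Sec62 have close estimates in both. Srp14 and Srp68 lie higher in the second range, and Sec61b lies lower in it.

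The remaining subunits of the same complexes lay near 0. Srp54, the GTPase that binds the signal peptide, has 3 copies in the mouse, which are nearly identical, so their counts are also given as a sum. How reads that match several copies were counted is not given in the sources used here. Such reads may have been left out or counted more than once, in the single copies and in the sum. The sum of Srp54a, Srp54b and Srp54c was 433 ± 17.0 CPM (SD, n = 8) in MS and 442 ± 15.0 CPM (SD, n = 12) in SR, and the log2 fold changes of the single copies were -0.02, -0.03 and -0.04. Srpr, the partner of Srprb, had 0.02 (SE 0.0363), Sec61a2, the second alpha subunit, had -0.03 (SE 0.0313), and Sec63, the partner of Sec62 that recruits the chaperone BiP, had 0.01 (SE 0.0307). Of these 6 genes 2 were above 0, 0 were at an unadjusted edgeR p under 0.05, and the median was -0.02. Nudt5 on the opposite strand, with a mean count of 414.5, overlaps 909 exonic bases of Sec61a2, and reads there may have been split or left out. The 7SL RNA genes Rn7s1 and Rn7s2 had means of at most 0.0643 CPM and were not tested. 7SL RNA is made by RNA polymerase III and carries no poly-A tail.

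The genes that act on the chain during and after its passage were given by lists. Over all genes tested, 50.3% were above 0, 6.62% were higher at an unadjusted p under 0.05 and 4.92% lower at it. The signal peptidase complex, which removes signal peptides, had 5 of 5 genes above 0 with a median log2 fold change of 0.10, and 2 at an unadjusted p under 0.05. Its Spcs2 had 56.1 to 79.9 CPM in MS (median 63.6) and 51.9 to 60.7 CPM in SR (median 59.3), with 7 of 8 MS mice above every SR mouse and a log2 fold change of 0.17 (SE 0.0486, edgeR p = 0.00184, adjusted p = 0.181). The oligosaccharyltransferase, which adds N-glycans, had 12 of 12 genes above 0 with a median of 0.11, and 8 of them at an unadjusted p under 0.05. Its Rpn1 had 113 to 132 CPM in MS (median 119) and 101 to 120 CPM in SR (median 109), with a log2 fold change of 0.13 (SE 0.0339, edgeR p = 0.000696, adjusted p = 0.147). The ER chaperones that face the channel had 6 of 7 genes above 0 with a median of 0.14, and 5 at an unadjusted p under 0.05. Hspa5, which encodes BiP, had 282 to 483 CPM in MS (median 332) and 210 to 358 CPM in SR (median 253), with a log2 fold change of 0.40 (SE 0.115, edgeR p = 0.00252, adjusted p = 0.191). The MS and SR mice overlapped in all 3 of these genes.

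The 4 lists of proteins beside the channel, of other insertion routes and of the ribosome's exit had medians below that of the members. The TRAM and TRAP proteins, which sit beside the channel, had 5 of 7 genes above 0, 2 of them at an unadjusted p under 0.05, and a median of 0.06, and its gene with the smallest p, Ssr3, had a log2 fold change of 0.09. The ER membrane complex, an insertase, had 8 of 10 above 0, 2 of them at that p, and a median of 0.04, with Emc6 at 0.15 as the gene with the smallest p. The GET and SND routes, which insert tail-anchored and other proteins without SRP, had 6 of 8 above 0, 1 of them at that p, and a median of 0.04, with Wrb at 0.09 as the gene with the smallest p. The nascent polypeptide-associated complex, which competes with SRP at the ribosome, had 2 of 3 above 0, 0 of them at that p, and a median of 0.04, with Naca at 0.09 as the gene with the smallest p. Of all 58 genes tested outside the members 46 were above 0 (all genes, 50.3%), 20 were higher at an unadjusted p under 0.05 (all genes, 6.62%), 0 were lower at it (all genes, 4.92%), and 0 were called by edgeR. Their median was 0.07, as in the members. DESeq2 called 2 of them, Rpn1 (adjusted p = 0.0342) and Hspa5 (adjusted p = 0.0402), and 0 members. The cytosolic ribosomal proteins, whose ribosomes SRP binds, had 80 of 80 above 0 with a median of 0.15, and 0 were called by edgeR, with 48 at an unadjusted p under 0.05.

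**Figure D5:**
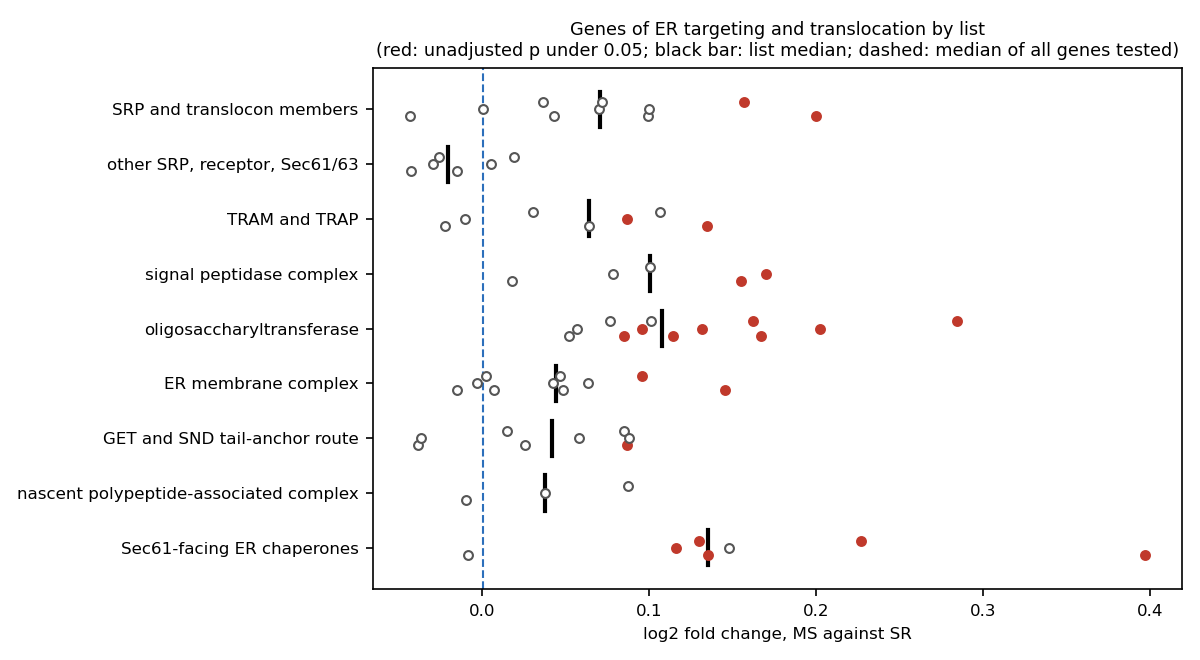
Log2 fold change of MS against SR (horizontal axis) of each gene, 1 point a gene, by list (vertical axis), with list medians as black bars, the median of all genes tested as a dashed line, and genes at an unadjusted p under 0.05 in red. The members have a median of 0.07 and 2 red points, the oligosaccharyltransferase 8 and the other SRP, receptor and Sec61/63 genes none.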

How the data were processed

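Hippocampal poly-A RNA of 9 MS and 12 SR mice was compared, grouped by the treatment in the labels. Reads were mapped by the authors to GRCm38 with STAR 2.7.3a and assigned to genes with featureCounts. What they deposited were raw counts per Ensembl gene and library, neither normalised nor filtered. Library preparation kept strand, but the strand setting of the counting is not given in the sources used here. The number of columns that belonged to no sample was 0. The library farthest out on the first principal component of the 500 most variable genes (DESeq2 1.42.0, variance-stabilised counts) was left out. No pair of libraries agreed within sampling noise: the closest, MS mice 3 and 6, had a chi-square per degree of freedom of 3.55.

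Counts were TMM-normalised, filtered with filterByExpr (minimum count 10) and tested with edgeR 4.0.16 (quasi-likelihood, robust, R 4.3.3), with Benjamini-Hochberg adjustment across 18146 genes and a threshold of 0.05. The biological coefficient of variation was 13.3%. Confidence intervals are at 95% and come from the same fit. The depth limits precision most for Sec61b and Sec61g, with 113 to 220 counts a library. Symbols and positions are of GENCODE M21, where 260 of the genes listed had no entry, promoters of RefSeq, and near-identical transcripts were sought with BLAST+ 2.17.0 (identity of at least 95% over at least 100 bases). The scripts were tested on simulated data. Members, lists and tests were chosen with earlier results of these data known. The genes named are all 10 members, the other SRP, receptor and Sec61/Sec63 genes, the 7SL genes and the gene with the smallest p of each other list. Alternatives were DESeq2's test and size factors, all 21 libraries, no filter, added terms, sets of consecutive animal numbers as a random block (limma 3.58.1) or summed, and each library left out in turn.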

Additional observations from a re-analysis of the deposited data

Results flagged for a closer look

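Srp14 in MS mouse 7 was singled out because it lay far from the other MS mice: it had 68.9 CPM, the other 7 had 42.7 to 52.2 CPM, and the gap to the next was 0.639 of the whole MS range, above the critical value of 0.526 for 8 mice. Chance singles out about 1 in 20 groups, and the 10 genes were each examined in the MS mice. Without MS mouse 7 the log2 fold change of Srp14 was 0.02.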

How the results depend on the processing

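No member was called under any alternative, including each library left out in turn, and the number of members higher at an unadjusted p under 0.05 stayed at 2 or 3. Over all genes, in either direction, 2095 of 18146 were at that p in the main fit. With the choroid plexus term 1530 of 18146 were, without MS mouse 8 2866 of 18266, and with DESeq2's Wald test 2456 of 39023. The log2 fold change ranged over all alternatives from 0.13 to 0.18 for Srp9 (adjusted p from 0.0608 to 0.382) and from 0.16 to 0.22 for Sec61g (adjusted p from 0.156 to 0.572). With one library left out the median of the members lay between 0.04 (without MS mouse 7) and 0.08, and the number of all genes called by edgeR between 0 and 109, the latter without MS mouse 8 and without MS mouse 9, against 2 with all 20 libraries. DESeq2 called 134. Of the other translocation genes DESeq2's Wald test called 2, where edgeR called 0. The cause was not tested.

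Sec62, at 0.000309, changed sign with DESeq2's Wald test (-0.000229), DESeq2's size factors (-0.000482), the choroid plexus term (-0.0221), the random block (-0.00811), no filter (-0.00809) and the length trend (-0.0200), and lay between -0.0438 and 0.0441 with one library left out. No other member changed sign. No paired analysis was possible because the labels give the mice no replicate numbers shared between groups. Sets of consecutive animal numbers, which may be litters, had a consensus correlation of 0.0466. With counts summed within these sets, the lowest edgeR adjusted p of the members was 0.382. With 113 to 220 counts a library, Sec61b and Sec61g have the widest intervals.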
